A study of Mus musculus with 8 samples.

Results

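The phagocyte NADPH oxidase was followed through 5 genes of its complex, Cybb, Cyba, Ncf1, Ncf4 and Rac2, listed by name with no threshold on their values. All 5 were present among the 13305 genes of the count table, after Ensembl identifiers were matched to GENCODE M21 symbols. The libraries came from whole bone marrow (BM) of C57BL/6N mice that model acute myeloid leukemia (AML), with 1 library per mouse and 8 in all. Every mouse, the comparison group included, carried the Mx1-Cre transgene, a Dnmt3a+/- genotype and an internal tandem duplication on both Flt3 alleles (Flt3ITD/ITD). The groups differed in Gab2, which encodes an adaptor protein downstream of receptor tyrosine kinases: 3 mice were Gab2+/+ (AML WT), 2 were Gab2+/- (AML HET) and 3 were Gab2-/- (AML KO). According to the study's methods, the interferon-responsive Mx-Cre had recombined Dnmt3a spontaneously, without an inducer, and the Gab2 knockout allele carries a neomycin cassette in place of part of the gene. The labels give no age or sex of the mice, and no mice without the Flt3 and Dnmt3a changes were sequenced. The study reports that blasts were hardly detectable in the blood of AML KO mice and few in AML HET mice. In AML KO marrow it reports a smaller share of granulocyte-monocyte progenitors and a larger share of megakaryocyte-erythroid progenitors than in AML WT. The groups thus differed in disease as well as in Gab2. The comparisons ask how the loss of 1 or both Gab2 alleles goes with the level of the oxidase transcripts in the marrow of this AML model.

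The oxidase is the enzyme with which neutrophils, monocytes and macrophages make superoxide, the first product of the respiratory burst that kills ingested microbes. Cybb (gp91phox, also called NOX2) is the catalytic subunit and sits in the membrane with Cyba (p22phox), which it needs for stability. In the resting cell Ncf1 (p47phox) and Ncf4 (p40phox) wait in the cytosol, and on stimulation they and the GTPase Rac2 move to the membrane. Loss of Cybb, Cyba, Ncf1 or Ncf4 causes chronic granulomatous disease in humans. Cybb, Ncf1 and Ncf4 are switched on as myeloid cells mature.

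None of the 5 genes passed the threshold in any comparison (edgeR quasi-likelihood test, Benjamini-Hochberg adjusted p under 0.05 over all genes). Against AML WT, the level of Cyba in AML KO was 1.34-fold, of Ncf1 1.25-fold, of Rac2 1.19-fold and of Ncf4 1.19-fold. Each of these had every AML KO library above every AML WT library, as had 12.3% of all genes. Cybb went the other way, at 0.748-fold, with libraries that overlapped. The libraries AML WT 1 and AML KO 1 stand apart, as described below. Leaving both out moved the log2 fold change of Cyba from 0.42 to 0.15 and of Ncf1 from 0.32 to 0.15. Ncf4 went from 0.25 to 0.11 and Cybb from -0.42 to -0.02, while Rac2 was at 0.25 and 0.26. Among the partner genes of the complex, Hvcn1 and Pak1 rose and passed the threshold with all 8 libraries. Without AML WT 1 and AML KO 1 they were still higher (log2 fold change 0.75 and 0.66) but did not pass. Rac1 and Cybc1 did not pass the test. The markers of mature neutrophils, red cells and platelets moved far more than the oxidase genes in the same libraries.

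On GRCm38 (mm10), Cybb lies on the reverse strand of chromosome X (chrX:9435252-9487771), Cyba on the reverse strand of chromosome 8 (chr8:122424776-122432930) and Ncf1 on the reverse strand of chromosome 5 (chr5:134220053-134229625). Ncf4 (chr15:78244801-78262580, forward strand) and Rac2 (chr15:78559167-78572783, reverse strand) are neighbours on chromosome 15, 296.6 kb apart. Ncf1 overlaps Gtf2ird2 on the opposite strand, and Cyba overlaps Gm20388 likewise. Since the strand setting of the counting is not given in the sources used here, reads in these overlaps cannot be assigned with certainty. RefSeq promoter windows (GRCm38.p6, 250 bases before to 50 after the start) were at hand for 3 of the 5 members, Cybb, Cyba and Ncf1. They were searched on both strands for GAGGAA, the core bound by Spi1 (PU.1), TTGCNNAA, bound by C/EBP factors, GAAANNGAA, bound by interferon regulatory factors, and TTCNNNGAA, bound by Stat5, which Flt3-ITD activates.

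The windows of Cybb and Ncf1 are shown because they are the ones in which matches were found. Capitals mark matches, and a match on the other strand appears as its reverse complement. The Cybb bases are the 250 before the start (chrX:9469325-9469574) and the 24 around the match past it (chrX:9469301-9469324), and the Ncf1 bases are the 250 before its start (chr5:134229626-134229875), all on the reverse strand and written 5′ to 3′.
Cybb, before the start: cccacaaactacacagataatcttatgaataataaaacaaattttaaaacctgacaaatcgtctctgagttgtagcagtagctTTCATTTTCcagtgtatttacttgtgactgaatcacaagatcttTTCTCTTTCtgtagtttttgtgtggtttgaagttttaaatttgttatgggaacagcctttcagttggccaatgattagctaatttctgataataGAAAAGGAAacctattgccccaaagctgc
Cybb, past the start: tgttttcatTTCCTCatcagaaga
Ncf1, before the start: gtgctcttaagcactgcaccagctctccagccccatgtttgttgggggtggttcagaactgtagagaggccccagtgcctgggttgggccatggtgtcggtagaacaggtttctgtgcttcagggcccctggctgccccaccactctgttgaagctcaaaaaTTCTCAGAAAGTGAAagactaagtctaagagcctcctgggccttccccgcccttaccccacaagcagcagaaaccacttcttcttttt
Cybb held GAAANNGAA 3 times, first bases at -167, -123 and -29 from the start, and GAGGAA once, at 10 past it. Ncf1 held GAAANNGAA at -82 and TTCNNNGAA at -88, and these matches overlap each other. The Cyba window held none of the 4 letter strings. Of 32851 promoter windows of the same length, 28.3% held GAGGAA, 10.8% TTGCNNAA, 8.56% GAAANNGAA and 8.30% TTCNNNGAA. These matches are a description of letters and not of binding.

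The libraries held 28009258 to 39266815 counts (median 32049876.5), and each member had at least 4930 counts in every library. At that depth the counting error was at most 1.42% (Poisson), below the spread between libraries of a group. Gab2 itself, counted over the whole gene, was at 93.9, 68.5 and 61.6 CPM (counts per 1000000 counts of the TMM-scaled library) in AML WT, 55.8 and 50.8 in AML HET and 35.0, 47.2 and 40.2 in AML KO. It was lower in AML KO than in AML WT in every library (log2 fold change -0.87, SE 0.18, edgeR adjusted p = 0.0420), and the counts that stayed can come from parts of the gene outside the cassette. The libraries AML WT 1 and AML KO 1 stood apart in how long and short genes were represented. Relative to the AML WT mean, the median log2 level of the 5403 genes with over 5 kb of exon minus that of the 2187 genes under 2 kb was 0.37 in AML WT 1 and -0.70 in AML KO 1. In the other 6 libraries it was between -0.29 and -0.13. The values of the members, their ratios and correlations and the counts of the lists are therefore also given without these libraries.

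Cybb, the catalytic subunit, stood at 1064, 818 and 635 CPM in AML WT, 745 and 598 in AML HET and 448, 835 and 599.9 in AML KO. The highest value of all was AML WT 1 and the lowest AML KO 1, while AML KO 2 was above AML WT 2 and AML WT 3, so the groups overlapped. Group means were 839 ± 215 (SD, n = 3), 671 ± 103 (n = 2) and 628 ± 195 (n = 3). The log2 fold change of AML KO against AML WT was -0.42 (SE 0.25, 95% interval -0.98 to 0.14, edgeR adjusted p = 0.374). Without AML KO 2 the difference was -0.68 and the groups no longer overlapped, and without AML WT 1 it was -0.22. With AML WT 1 and AML KO 1 both left out it was -0.02.

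Cyba, the partner of Cybb in the membrane, stood at 308, 495.4 and 463 CPM in AML WT, 387 and 452 in AML HET and 628, 567 and 495.9 in AML KO. AML WT 1 was the lowest and AML KO 1 the highest, the reverse of Cybb, and the groups were separated by less than 1 CPM between AML KO 3 and AML WT 2. The means were 422 ± 99.8, 420 ± 45.4 and 564 ± 66.2 CPM (SD). Against AML WT, AML KO differed by 0.42 on the log2 scale (SE 0.19, 95% interval 0.00 to 0.83, edgeR adjusted p = 0.281). This was 0.22 without AML WT 1 and 0.15 without both AML WT 1 and AML KO 1.

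Ncf1, the organizer that carries the cytosolic subunits to the membrane, stood at 330, 444 and 397 CPM in AML WT, 448 and 435 in AML HET and 530, 468 and 466 in AML KO. All AML KO libraries were above all others, and AML WT 1 was again the lowest and AML KO 1 the highest. Means were 391 ± 57.3, 442 ± 9.33 and 488 ± 36.7 CPM (SD), and the log2 fold change of AML KO against AML WT was 0.32 (SE 0.14, 95% interval 0.02 to 0.62, edgeR adjusted p = 0.268). It was 0.15 without AML WT 1 and AML KO 1.

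Ncf4, which binds phosphoinositide on the phagosome and keeps the assembled complex active there, was the lowest member by count. It stood at 142, 176 and 169 CPM in AML WT, 173 and 206 in AML HET and 205, 188 and 185 in AML KO. The AML KO libraries were all above the AML WT libraries, but the highest value of the 8 belonged to AML HET 2. The means were 162 ± 18.1, 189 ± 23.2 and 193 ± 10.9 CPM (SD), with a log2 fold change of 0.25 for AML KO against AML WT (SE 0.13, 95% interval -0.04 to 0.53, edgeR adjusted p = 0.330). Leaving out AML WT 1 and AML KO 1 gave 0.11.

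Rac2, the GTPase of blood cells that completes the active enzyme, stood at 571, 613 and 586 CPM in AML WT, 582 and 676 in AML HET and 673, 796 and 638 in AML KO. The AML WT libraries lay close together (590 ± 20.9 CPM, SD), AML HET (629 ± 66.8) reached into the range of both other groups, and AML KO (702 ± 83.0) was above AML WT in every library. The log2 fold change of AML KO against AML WT was 0.25 (SE 0.13, 95% interval -0.04 to 0.54, edgeR adjusted p = 0.327). It was 0.26 without AML WT 1 and AML KO 1, and 0.15 without AML KO 2.

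**Figure D1:**
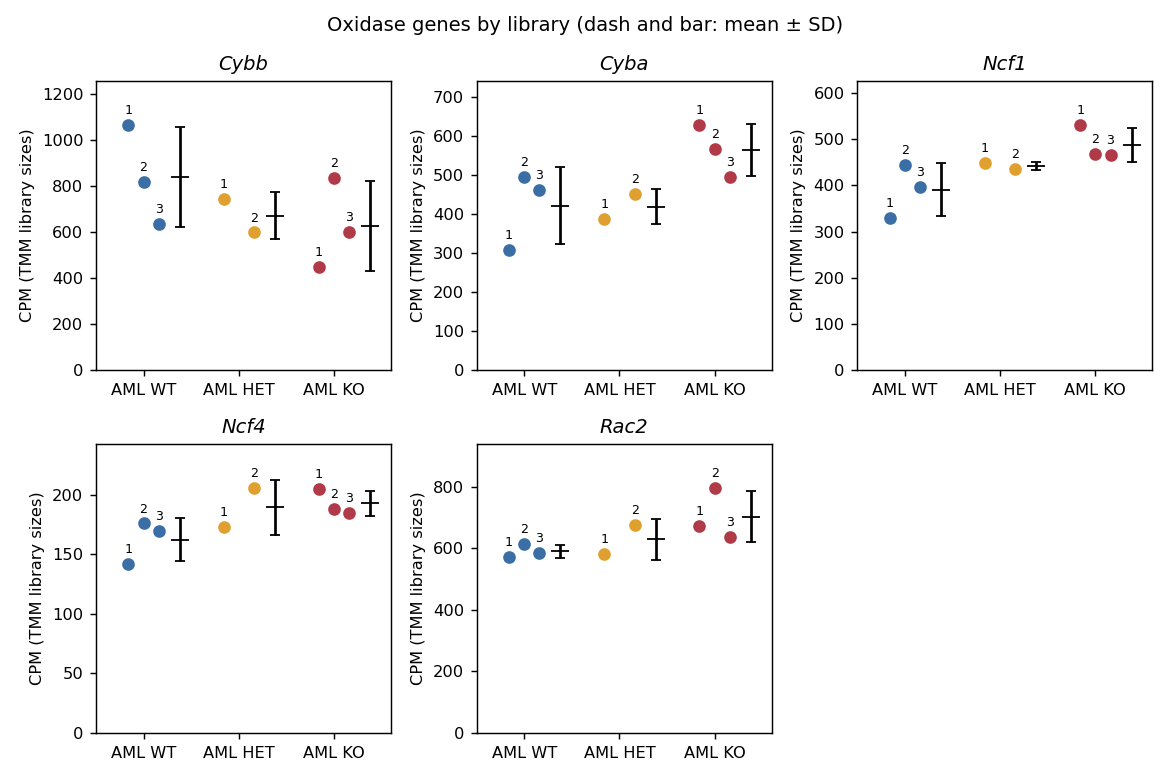
CPM of the 5 members in each library (y axis from 0), by group and numbered by mouse, with the mean and SD beside the points. AML WT 1 is the highest library for Cybb and the lowest for Cyba, Ncf1, Ncf4 and Rac2.

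Counted over the members, 0 of 5 passed an adjusted p of 0.05 in AML KO against AML WT, where 2.09% of all genes did (278, of which 235 were higher and 43 lower). At an unadjusted p under 0.05 there were 2 of 5, Cyba and Ncf1, beside 17.7% of all genes. The 4 members with AML KO above AML WT without overlap compare with 12.3% of all genes, and no member was below without overlap, where 9.83% of all genes were. The median log2 fold change was 0.25 over the members and -0.02 over all genes. Of all genes, 25.4% had a larger absolute log2 fold change than the largest of a member. The intervals reach from a 0.508-fold to a 1.10-fold level for Cybb and from 1.00-fold to 1.78-fold for Cyba. A missed threshold does not show equal levels.

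**Figure D2:**
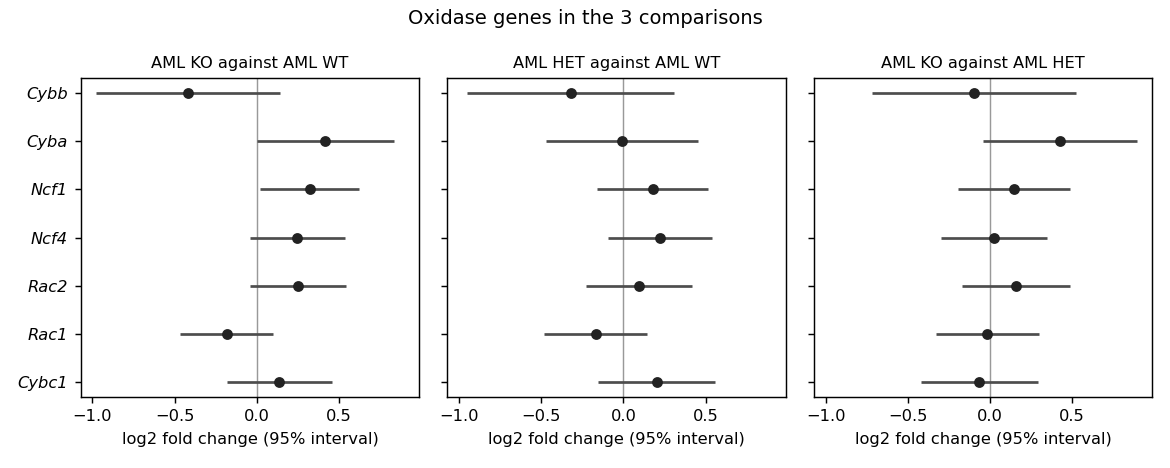
Log2 fold change (x axis, with its 95% interval as a line) of the 5 members and of Rac1 and Cybc1 in each of the 3 comparisons. Apart from Cyba and Ncf1 in AML KO against AML WT, every interval spans 0.

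Loss of 1 Gab2 allele brought no member past the threshold. In AML HET against AML WT, 0 of 5 members passed, beside 0.0225% of all genes (3 genes, all higher, with 329 at an unadjusted p under 0.05). Log2 fold changes were -0.32 for Cybb (SE 0.28), -0.01 for Cyba (SE 0.21), 0.18 for Ncf1 (SE 0.15), 0.22 for Ncf4 (SE 0.14) and 0.09 for Rac2 (SE 0.14). The groups of every member overlapped in this comparison. Leaving out 1 library moved these values to between -0.49 and -0.11 for Cybb, 0.07 and 0.28 for Ncf1, and 0.09 and 0.34 for Ncf4. In AML KO against AML HET edgeR called 0 of 5 members and 0.0% of all genes, with 780 genes at an unadjusted p under 0.05 and 77 called by DESeq2. There the values were -0.10 for Cybb (SE 0.28), 0.43 for Cyba (SE 0.21), 0.14 for Ncf1 (SE 0.15), 0.02 for Ncf4 (SE 0.14) and 0.16 for Rac2 (SE 0.15). Cyba and Ncf1, 2 of 5 members, were higher in AML KO than in AML HET without overlap, beside 13.2% of all genes. The AML HET mean of Cyba was thus close to that of AML WT, and the AML HET mean of Ncf4 close to that of AML KO. The comparisons share libraries and are not independent of each other.

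Levels of different genes were compared per kb of exon, with the exons of all annotated transcripts of a gene joined, and their order rests on these lengths. In AML WT, Cyba was the highest member at 406 CPM per kb, followed by Rac2 at 190, Cybb at 144, Ncf1 at 107 and Ncf4 at 80.3. In AML KO the order was Cyba at 543, Rac2 at 226, Ncf1 at 133, Cybb at 108 and Ncf4 at 95.3, so that Cybb and Ncf1 changed places. These neighbours did not differ beyond their spread, since Cybb ranged from 77.1 to 144 CPM per kb in AML KO and Ncf1 from 127 to 145. The summed level of the 5 members was 2250 to 2546 CPM in AML WT, 2335 to 2367 in AML HET and 2384 to 2853 in AML KO, ranges that overlapped.

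Ratios within a library do not depend on library size, and 4 were compared between AML KO and AML WT with an exact two-sided permutation test, which cannot go below p = 0.1 with 3 against 3 libraries. The ratio of Cybb to Cyba per kb was 0.617, 0.295 and 0.246 in AML WT, 0.344 and 0.237 in AML HET and 0.128, 0.263 and 0.216 in AML KO. The AML KO mean was lower by 0.87 on the log2 scale, but the groups overlapped (log2 difference -0.87, exact permutation p = 0.2, adjusted 0.267 over the 4 ratios). It was -0.48 without AML WT 1, -0.57 without AML KO 1 and -0.17 without both. Rac2 to Rac1, the GTPase of blood cells to the one of all cells, was 2.06, 2.16 and 2.30 in AML WT, 2.43 and 2.76 in AML HET and 3.23, 2.95 and 2.66 in AML KO. It was higher in AML KO than in AML WT without overlap, and both AML HET libraries lay above AML WT (log2 difference 0.44, exact permutation p = 0.1, adjusted 0.267), and the difference was 0.33 without AML WT 1 and AML KO 1. Ncf1 to Cybb differed by 0.76 with overlap (exact permutation p = 0.2, adjusted 0.267), by 0.46 without AML WT 1, by 0.48 without AML KO 1 and by 0.18 without both. Ncf1 to Ncf4 ranged from 1.29 to 1.39 in AML WT and from 1.37 to 1.43 in AML KO, while AML HET, at 1.43 and 1.17, held the highest and the lowest of the 8 libraries (log2 difference 0.08, exact permutation p = 0.3, adjusted 0.3, and 0.04 without AML WT 1 and AML KO 1).

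**Figure D3:**
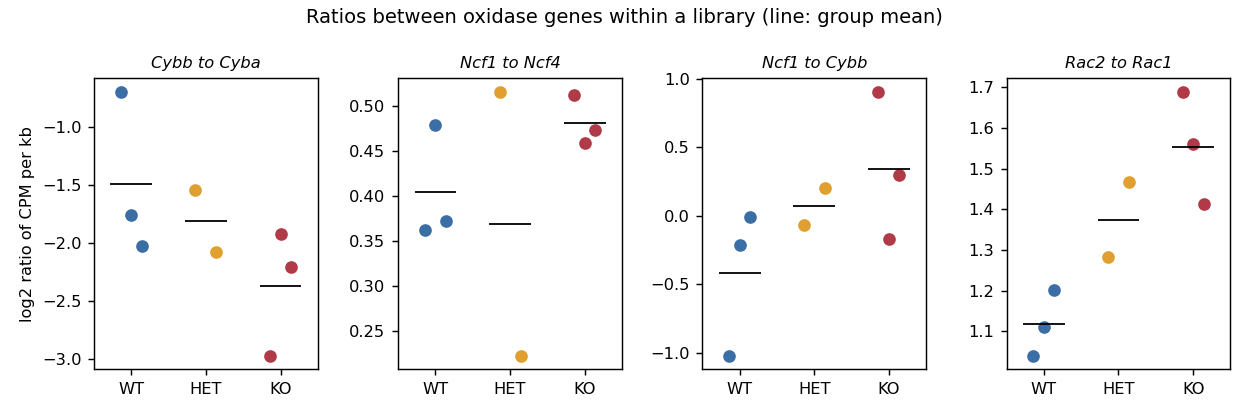
Log2 ratio of CPM per kb (y axis, a separate scale in each panel) for 4 gene pairs in each library, with the group mean as a line. Only Rac2 to Rac1 has all AML KO libraries above all AML WT libraries among the 4 ratios.

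Over all 8 libraries Cybb had negative correlations with the other members. Without AML WT 1 and AML KO 1 only the one with Ncf4 stayed negative. Pearson's r of its log2 CPM was -0.68 with Cyba, -0.73 with Ncf1, -0.79 with Ncf4 and -0.22 with Rac2, whereas r among the other 4 was between 0.57 and 0.88. Over the 6 libraries without AML WT 1 and AML KO 1, r of Cybb was 0.30 with Cyba, 0.36 with Ncf1, -0.32 with Ncf4 and 0.29 with Rac2, and r among the others was between 0.25 and 0.75. These values describe libraries of 3 groups that share the length difference given above. Cybb has the most exon sequence of the members (5.81 kb) and Cyba the least (1.04 kb), with Ncf4 at 2.02 kb, Rac2 at 3.10 kb and Ncf1 at 3.66 kb. The 500 genes nearest to Cybb in exon length had a median log2 fold change of -0.10 in AML KO against AML WT, and those nearest to Cyba 0.28. Measured from the genes of like length, the members stood at -0.32 (Cybb), 0.13 (Cyba), 0.29 (Ncf1), 0.10 (Ncf4) and 0.19 (Rac2). Thus the median of genes of like length was 0.28 beside the 0.42 of Cyba, and 0.03 beside the 0.32 of Ncf1. These lengths join the exons of all annotated transcripts and can exceed that of the main transcript, so the match is rough. Ncf1 was at 0.15 without AML WT 1 and AML KO 1. These are its lowest and its highest library, so leaving them out lowers the difference whatever its source. The part of RNA quality or library preparation in these values was not tested.

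**Figure D4:**
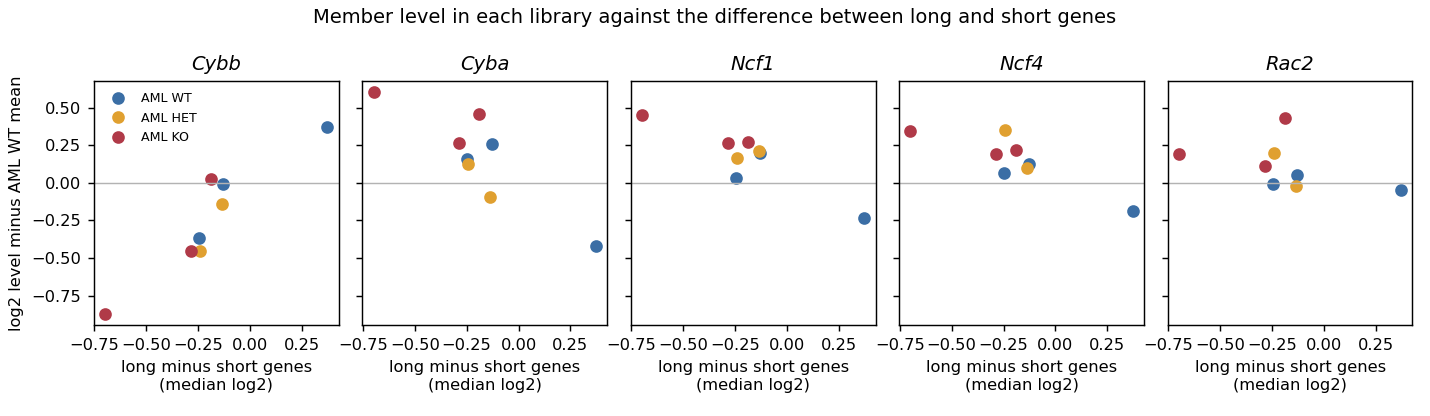
Log2 level of each member minus its AML WT mean (y axis) against the median log2 difference between genes over 5 kb and under 2 kb of exon (x axis), 1 point per library. The points at both ends of the x axis are AML KO 1 (-0.70) and AML WT 1 (0.37), where Cybb is at its lowest and its highest.

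Among the partners of the members, Rac1 was at a log2 fold change of -0.18 in AML KO against AML WT (SE 0.13, edgeR adjusted p = 0.427) and Cybc1, the chaperone that Cybb and Cyba need for their expression, at 0.14 (SE 0.14, adjusted p = 0.604), both with overlap. They were at -0.08 and -0.06 without AML WT 1 and AML KO 1. Of 24 genes for assembly and activation, 2 rose in AML KO and 0 fell, where 2.09% of all genes passed in either direction. Their median log2 fold change was -0.05. Hvcn1, the voltage-gated proton channel that carries out the protons left by the oxidase, rose from 21.3 to 31.3 CPM in AML WT to 40.5 to 47.8 in AML KO (log2 fold change 0.85, SE 0.16, edgeR adjusted p = 0.0322). Pak1, a kinase activated by Rac that phosphorylates Ncf1, rose from 61.8 to 77.0 CPM to 104 to 119 (0.71, SE 0.12, adjusted p = 0.0194), with AML HET between at 89.7 and 92.2. Prkca, a protein kinase C, lay between them in size and missed the threshold (0.80, SE 0.18, adjusted p = 0.0575). Without AML WT 1 and AML KO 1 the values of Hvcn1 and Pak1 were 0.75 and 0.66 and neither passed (edgeR adjusted p = 0.113 and 0.0551).

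Other NADPH oxidases were nearly absent from the table. Of 10 genes in that list (the other Nox and Duox enzymes with their regulators, and Rac3) only Rac3 was listed, at 0.692 to 2.32 CPM over all libraries. Among 18 receptors and kinases that trigger the burst 1 rose and 0 fell, where 2.09% of all genes passed. Their median was -0.07, and 13 of the 18 values were negative. The gene that rose was C5ar1, the receptor for the complement fragment C5a, at 2.53 to 4.99 CPM in AML WT and 11.3 to 15.9 in AML KO (log2 fold change 1.90, SE 0.27, edgeR adjusted p = 0.00988). The formyl peptide receptors Fpr1 (1.73, SE 0.39, adjusted p = 0.0594) and Fpr2 (1.73, SE 0.51, adjusted p = 0.152) had nearly the same size and did not pass. Without overlap, 5 of the 18 were lower in AML KO, beside 9.83% of all genes, and 2 were higher, beside 12.3% of all genes. The 5 lower ones were the Fc receptor gene Fcgr1 (-1.10, edgeR adjusted p = 0.0829), Fcgr2b (-0.36), Clec7a (-0.40), Tlr2 (-0.35) and Lyn (-0.23). They were named here after their values were seen, and none of them passed. C5ar1 was at 1.55 without AML WT 1 and AML KO 1 (edgeR adjusted p = 0.0213). None of 25 genes that handle superoxide and peroxide passed in either direction (edgeR, 7 at an unadjusted p under 0.05, beside 17.7% of all genes). Their median was 0.23, and 0.11 without AML WT 1 and AML KO 1. With all libraries 18 of the 25 values were positive. Without overlap, 9 were higher in AML KO, beside 12.3% of all genes, and 0 were lower, beside 9.83%. The largest values of the 25 were -1.54 for Sod3, 0.87 for Nqo1 and 0.77 for Prdx2, with edgeR adjusted p of 0.276, 0.173 and 0.225.

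Among 16 transcription factors tied to oxidase genes 2 rose and 0 fell, where 2.09% of all genes passed. Their median log2 fold change was 0.06. Cebpe, needed for the late steps of granulocyte maturation, went from 9.24 to 16.6 CPM in AML WT over 19.1 and 25.3 in AML HET to 41.6 to 56.5 in AML KO (1.76, SE 0.24, edgeR adjusted p = 0.00898). Gfi1, a repressor that directs cells to the granulocyte fate, rose by 0.69 (SE 0.13, adjusted p = 0.0268). Without AML WT 1 and AML KO 1, Cebpe was at 1.39 (adjusted p = 0.00496) and Gfi1 at 0.61 and no longer past the threshold (adjusted p = 0.0937). Hoxa10 was at 0.82 (SE 0.34, adjusted p = 0.261). The factors best known for Cybb showed little difference, with Spi1 at 0.06 (SE 0.15, adjusted p = 0.838) and Irf8 at -0.02 (SE 0.12, adjusted p = 0.938). Spi1 and Irf8 are outside the rule for named genes, and their values were known when they were picked.

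Cebpe, Itgam, Irf8 and Hmox1 stand in a marker list as well as in a list above. The marker lists of the cells in whole marrow were read beside the members, since in bulk RNA fewer cells of a type and less RNA per cell cannot be told apart. Markers of mature neutrophils, which hold the oxidase at a high level, summed to 12824 to 16209 CPM in AML WT, 17148 to 18194 in AML HET and 19354 to 28059 in AML KO. Lyz2, which monocytes also express, made up most of the AML WT sum (9987 to 11316 CPM, log2 fold change -0.27, edgeR adjusted p = 0.454). The other 22 markers summed to 2704 to 6222 CPM in AML WT, 6992 to 7872 in AML HET and 12773 to 19802 in AML KO. Of 23, 11 rose and 0 fell, where 2.09% of all genes passed, a share that holds for the marker lists below too. The median log2 fold change was 1.31, against 0.25 for the oxidase genes. Leaving out AML WT 1 and AML KO 1, 8 rose and the medians were 1.24 and 0.15. The largest values were those of Ly6g (3.14, SE 0.68, edgeR adjusted p = 0.0524), the granule peptide Camp (2.72, SE 0.48, adjusted p = 0.0208) and Retnlg (2.47, SE 0.73, adjusted p = 0.151). Of 6 primary granule markers none passed (edgeR, 3 at an unadjusted p under 0.05, beside 17.7% of all genes). All 6 were above 0, with a median of 0.35 and values of 0.61 for Prtn3, 0.41 for Mpo and 0.41 for Ms4a3.

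Monocytes and macrophages are the other cells with the oxidase. Monocyte markers summed to 8047 to 10422 CPM in AML WT, 7728 to 7742 in AML HET and 5949 to 8768 in AML KO. Of the 15 genes 14 had a negative log2 fold change (median -0.26), with Fn1 at -0.78, Cd14 at -0.67 and F13a1 at -0.53. None passed in either direction (edgeR, 3 at an unadjusted p under 0.05, beside 17.7% of all genes). Of 14 macrophage markers 13 were listed, and of these 3 rose and 1 fell with a median of 0.21, while their summed level was 368 to 444 CPM in AML WT, 311 to 352 in AML HET and 256 to 383 in AML KO. The mannose receptor gene Mrc1 fell from 154 to 192 CPM to 84.9 to 99.98 (-0.87, edgeR adjusted p = 0.0156) and was named after its value was seen. Cd5l rose from at most 0.429 CPM to 1.41 to 2.55, the iron exporter Slc40a1 rose by 1.17, and Siglec1 was at -2.18 without passing. Without AML WT 1 and AML KO 1, 1 macrophage marker rose and 1 fell, and the monocyte median was -0.15. The sign of Cybb was that of the monocyte median, though Cybb was at -0.02 without AML WT 1 and AML KO 1. The other members shared their sign with the neutrophil medians. They shared it as well with the macrophage, eosinophil, erythroid, platelet, B cell and T and NK cell medians, so it is not particular to neutrophils. The part of cell composition in the members' values was not tested.

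Red cells and platelets lack the burst, and their markers had the largest medians of the lists. Of 20 erythroid markers listed, 18 rose and 0 fell (median 3.52, led by Tspo2 at 4.34, Car1 at 4.11 and Epb42 at 3.92), and their summed level was 345 to 478 CPM in AML WT and 1654 to 5715 in AML KO. Megakaryocyte and platelet markers rose in 13 of 14 (median 2.97, with Pf4 at 3.99, Gp1bb at 3.84 and Gp5 at 3.67), from 98.9 to 135 CPM in sum to 369 to 496. Eosinophils carry the oxidase as well, and of 5 of their 9 markers that were listed 2 rose, Epx (3.26) and Prg2 (3.19), at low levels of at most 2.06 and 41.2 CPM in AML KO, with Prg3 at 1.29. Ear2, the most abundant of them in AML WT and also named after its value was seen, was lower without overlap and did not pass (-0.94, edgeR adjusted p = 0.0707). Without AML WT 1 and AML KO 1, 13 of 14 platelet markers rose, 0 of 20 erythroid markers passed (median 2.66, where edgeR had 18 with all libraries), and of the eosinophil markers 1 rose and 1 fell. None of the B cell markers passed by edgeR (8 of 9 listed, median 0.21, Vpreb1 at 0.91, Blnk at -0.64 and Cd79a at 0.60). Nor did any of the 10 T and NK cell markers (median 0.43, Klrb1c at 0.94, Cd8a at -0.78 and Cd3d at 0.67). At an unadjusted edgeR p under 0.05 there were 0 B cell and 4 T and NK cell markers, beside 17.7% of all genes. Leaving the erythroid and platelet markers out of the library sizes moved no member over the threshold.

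**Figure D5:**
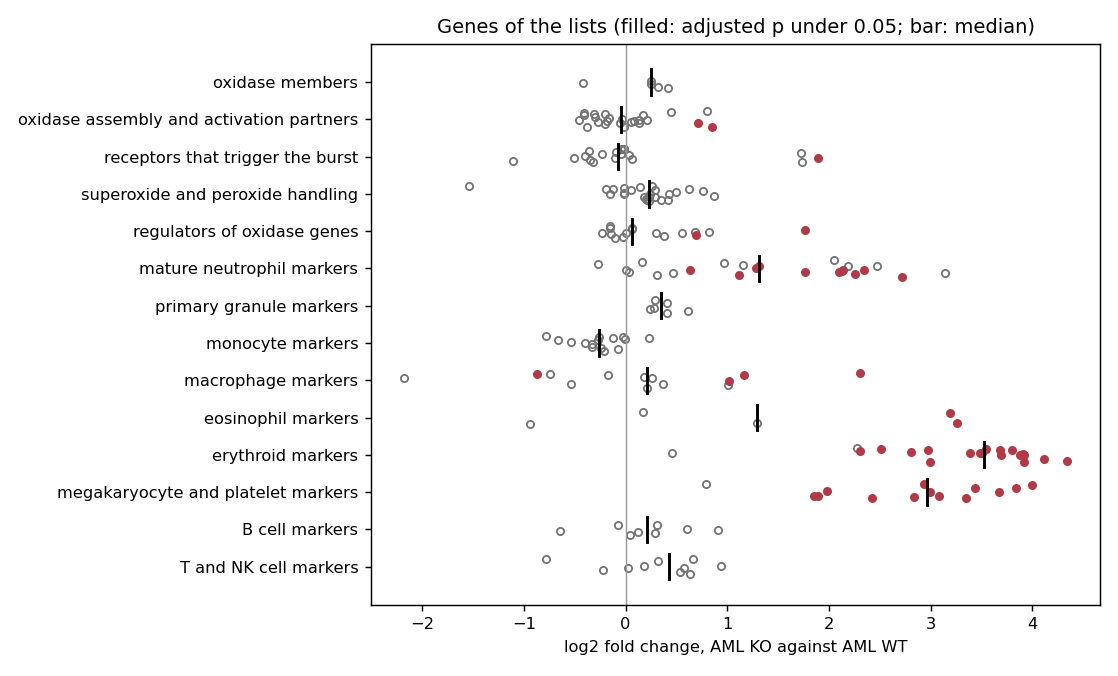
Log2 fold change of AML KO against AML WT (x axis) of the listed genes by list, filled where the edgeR adjusted p is under 0.05. The list's median is a bar, and the list of other NADPH oxidases, with Rac3 alone, is not drawn. The 5 oxidase members lie between -0.42 and 0.42, while the medians of the mature neutrophil, platelet and erythroid lists are 1.31, 2.97 and 3.52.

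The genes whose pattern over the 8 libraries was most like that of each member were found by Pearson's r of log2 CPM among 12682 genes with a mean of at least 1 CPM. For Cybb they were Mfsd14b, Mtdh and Rapgef2 (r of 0.99 for all), for Cyba Mtch1 and the ribosomal protein genes Rpl13 and Rpl19 (r of 0.99), and for Ncf1 Oaz2 (0.99), Akip1 and Dazap2 (0.98). For Ncf4 they were Arap1 (0.99), Unc13d and Cnpy4 (0.97), and for Rac2 Ctdsp1 (0.98), Rab3d and Chst12 (0.97). None of the 15 genes was another member, none passed the threshold in AML KO against AML WT, and 8 libraries allow many high values of r. Between Ncf4 and Rac2 on chromosome 15 the table lists 7 genes, the cytokine receptor chains Csf2rb2, Csf2rb and Il2rb among them, and 0 of the 7 passed, with 4 above 0.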

How the data were processed

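Whole BM RNA of 8 mice was sequenced by the authors on an Illumina HiSeq4000. Raw counts per gene were deposited by the authors without normalization, and the submitters' processing notes name Trimmomatic 0.36, STAR 2.5.2b and mm10. The counter, its annotation and its strand setting are not given in the sources used here. Counts were analysed with edgeR 4.0.16 in R 4.3.3 (TMM, filterByExpr, which removed 0 genes, robust quasi-likelihood test on all 8 libraries with genotype as the only term), with Benjamini-Hochberg adjustment over 13305 genes and a threshold of 0.05. CPM use TMM library sizes. Exon lengths come from GENCODE M21, with the exons of all transcripts of a gene joined, and promoter sequences from RefSeq. Tested on simulated counts for AML KO against AML WT over 13305 genes, the fit found 66 of 100 genes changed 2-fold and 99 of 100 changed 4-fold, with 11 unchanged genes called. Differences of the members are far smaller than these folds.

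Named are all members, Rac1 and Cybc1 (1 further gene is not reported here), the 3 genes of each of 15 lists with the largest absolute log2 fold change of AML KO against AML WT, partner genes past the threshold, and 3 pattern neighbours per member. The members, lists and rules were chosen with earlier results of these data known. Alternatives were DESeq2 1.42.0, limma 3.58.1 (voom), other scalings and filters, a replicate block and leaving out each library. Levels relative to Ptprc, the comparison with genes of like exon length, the values without AML WT 1 and AML KO 1, and the neutrophil sum without Lyz2 were chosen after seeing the data. Each library is 1 mouse, and libraries of a group differed beyond sampling noise. Mice with the same number did not deviate together (correlations of deviations from group means from -0.62 to 0.40).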

Additional observations from a re-analysis of the deposited data

How the results depend on the processing

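No member passed the threshold under any of the alternatives run, and in AML KO against AML WT the edgeR, DESeq2 or limma adjusted p of the members ranged from 0.150 to 0.989. Of their 105 alternative log2 fold changes in that comparison 104 kept their sign. The exception is Cybb relative to Ptprc (CD45), at 0.17 (exact permutation p = 0.5). Ptprc itself was lower in AML KO without overlap (379 ± 53.7 against 571 ± 1.04 CPM, SD, n = 3). It did not pass the threshold (log2 fold change -0.59, edgeR adjusted p = 0.0742). Relative to Ptprc, Cyba was at 1.04, Ncf1 at 0.93, Ncf4 at 0.85 and Rac2 at 0.85, over 2 times their values above. Each was higher in AML KO without overlap (exact permutation p = 0.1, the smallest possible). With a divisor that is lower in AML KO, a gene of equal level would also stand higher there. The share of all genes that separate on this scale was not computed, so the separation cannot be read as particular to the members. Leaving out 1 library gave -0.68 to -0.22 for Cybb, 0.22 to 0.55 for Cyba, 0.20 to 0.42 for Ncf1, 0.15 to 0.31 for Ncf4 and 0.15 to 0.32 for Rac2, and Cybc1 was at -0.060 without AML WT 1 and AML KO 1.

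With AML HET, small values changed sign. Against AML WT, Cyba was at 0.014 with voom and 0.010 with upper-quartile scaling, and at -0.19 to 0.12 with 1 library left out, and Rac2 at -0.019 to 0.20. In AML KO against AML HET, Cybb was at 0.0078 with the replicate block, 0.10 without AML WT 1 and AML KO 1 and -0.36 to 0.10 with 1 library left out, and Ncf4 at -0.023 and -0.10 to 0.16.

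Counts of called genes moved more. AML KO against AML WT gave 278 genes with edgeR, 730 with DESeq2, 151 with at least 50 counts in every library, 134 without AML WT 1 and AML KO 1, and 40 (without AML WT 2) to 370 (without AML KO 2) with 1 library left out. AML HET against AML WT gave 59 with DESeq2, 1 with voom, 1 with at least 50 counts and 1 to 5 with 1 library left out. AML KO against AML HET gave 77 with DESeq2 and 0 to 4 with 1 library left out. With the replicate block these counts were 19, 0 and 0, and the mouse numbers mark no shared litter or day in the labels. The causes were not tested. With 2 or 3 mice per group, the spread of the members between libraries of a group was larger than their counting error. Since each library is 1 mouse, differences between mice and between library preparations cannot be told apart.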
